A study of Bos taurus with 6 samples.

Results

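The core genes of the circadian clock were followed in back muscle, the longissimus dorsi, of 2 cattle breeds, Shandong black and Luxi. The members were the 10 genes ARNTL, CLOCK, PER1, PER2, PER3, CRY1, CRY2, NR1D1, NR1D2 and DBP, chosen by name among 17258 genes named in the files. Of these 10, 9 had a value and all 9 passed the filter on low values, with a mean of at least 1 FPKM in both breeds. PER3 has no named transcript in the 6 files and is described apart. FPKM gives fragments per kilobase of transcript scaled by the sequencing of the library, so it can be set side by side between genes of different length.

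RNA-Seq had been performed on 3 Shandong black cattle (B1, B2 and B3) and 3 Luxi cattle (L1, L2 and L3), all 18 months old, with one library from each animal. Luxi cattle are a local yellow breed, and Shandong black cattle were bred from Japanese black, Luxi and Bohai black cattle. The study's text calls the Shandong black animals offspring of cloned cattle and Luxi cattle the breed of the recipients. The breeds were obtained from different companies, and the study's methods describe one feeding management for both. Its abstract speaks of an assignment of the animals to environments, which it does not describe. No treatment is named. The hour of slaughter and the order of the animals are not given in the sources used here. The labels give no sex, and although one caption of the study uses the word bull for the Shandong black animals, XIST, the RNA of the inactive X of females, was at 4.83 to 14.0 FPKM in them and at 0 to 0.207 FPKM in the Luxi cattle, which goes against that word. Breed, origin, sex, any difference of environment and time of sampling cannot be told apart in any comparison of the breeds.

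The clock is a feedback loop of transcription. ARNTL (also called BMAL1) and CLOCK pair and bind E-box elements, from which they drive the period genes, the cryptochromes, NR1D1, NR1D2 and DBP. Period and cryptochrome proteins return to the nucleus and repress that pair, and the REV-ERB receptors encoded by NR1D1 and NR1D2 repress ARNTL, so ARNTL RNA is high when NR1D1 RNA is low. NR1D1 and DBP transcripts peak before those of PER2, and CRY1 peaks later than the other E-box genes. In skeletal muscle this clock is known for timing glucose uptake, fuel choice and the expression of muscle genes.

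PER1 and PER2, the genes of 2 period repressors, were higher in Luxi cattle, and they were the only members called. The mean level of PER1 was 5.39 times and that of PER2 6.96 times that of Shandong black cattle. CRY1 was higher in all 3 Luxi cattle by a smaller step that did not pass the test. The activators ARNTL and CLOCK, the receptors NR1D1 and NR1D2 and the output gene DBP overlapped between the breeds. Calls were made with limma over 9765 genes, and needed a Benjamini-Hochberg adjusted p-value under 0.05 together with a difference of at least 1 in log2(FPKM + 1). Of all genes tested, 1.56% were called higher in Luxi cattle and 2.55% in either direction, beside 2 of 9 members called higher and 0 lower. At an unadjusted limma p-value under 0.05 the count was also 2 of the 9 members, beside 2135 of all 9765 genes. By limma voom 1 member was called, PER1, beside 92 over all genes. The 3 Luxi cattle lay above the 3 Shandong black cattle in 20.0% of all genes and in 3 of the 9 members, PER1, PER2 and CRY1. The median log2 fold change was 0.29 over the members and 0.13 over all genes tested, and 7 of the 9 members had a positive sign, beside 62.6% of all genes. CRY2, at 0.06, is counted among these 7 and as overlapping between the breeds. Its summed FPKM could not be read, as described below.

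**Figure D1:**
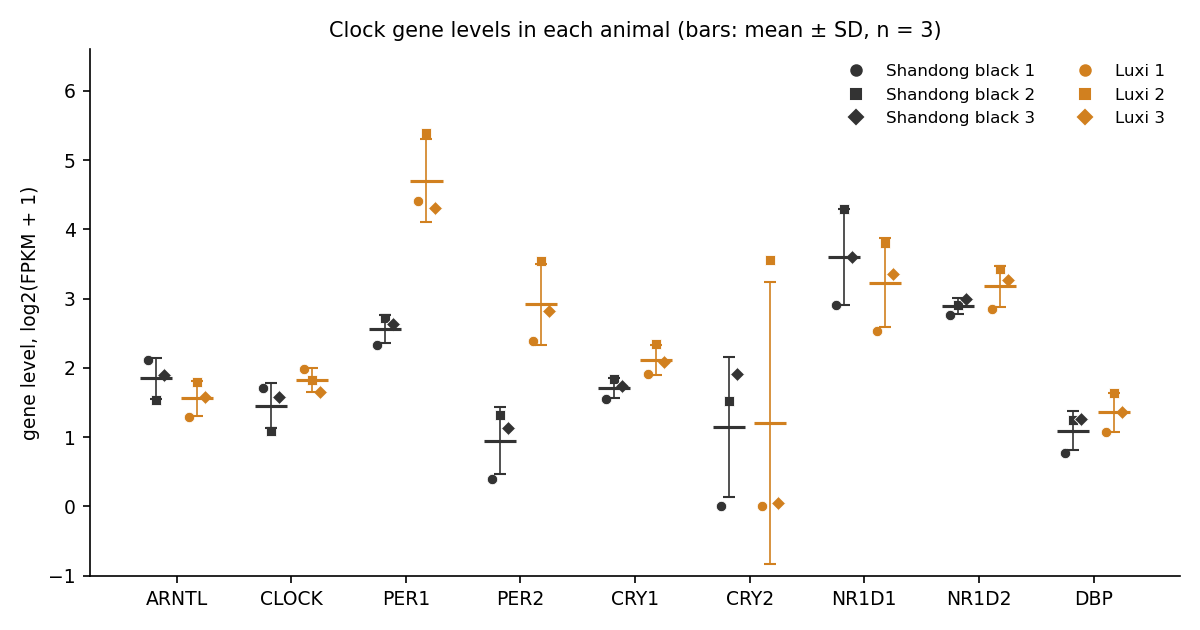
Level of each clock gene as log2(FPKM + 1) in every animal (vertical axis), with Shandong black cattle in dark grey and Luxi cattle in orange, and the mean ± SD of 3 animals as a bar. PER1 and PER2 stand apart between the breeds, CRY1 separates by a small step, the other genes overlap, and CRY2 runs from 0 to 10.7 FPKM in Luxi cattle.

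PER1 lies on chromosome 19, from 27778457 to 27793756 on the minus strand (ARS-UCD1.2), and encodes a period repressor that also responds quickly to hormones and other signals. Its FPKM was 4.05, 5.61 and 5.20 in B1, B2 and B3. In L1, L2 and L3 it was 20.3, 41.0 and 18.7. Every Luxi animal was thus far above every Shandong black animal, and L2 was well above L1 and L3. The means were 4.96 ± 0.81 and 26.7 ± 12.4 FPKM (SD, n = 3 each), and the log2 fold change was 2.14 with a standard error of 0.32, a 95% interval of 1.4 to 2.88 and a limma adjusted p-value of 0.0256.

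PER2, on chromosome 3 from 117557048 to 117599734 on the minus strand, encodes the second period repressor. It was found at 0.317, 1.5 and 1.19 FPKM in B1, B2 and B3, and at 4.22, 10.6 and 6.07 FPKM in L1, L2 and L3. The animals of the breeds did not overlap, and the order of the animals within each breed was close to that of PER1, with L2 highest and B1 lowest for both genes. For PER2 the log2 fold change was 1.97 with a standard error of 0.35, a 95% interval of 1.14 to 2.79 and a limma adjusted p-value of 0.0383. Since 1 was added before the logarithm, this understates the change of a gene near 1 FPKM.

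The transcripts behind both values were not the same in every animal. A named form of PER1 of 4594 bases in 22 exons carried 79.4, 44.1 and 80.2% of the PER1 FPKM in B1, B2 and B3 and 64.4, 99.1 and 97.7% in L1, L2 and L3. Unnamed assembled transcripts on PER1 exons made up most of the rest in B2 and L1. On that named form alone, PER1 was 3.22, 2.47 and 4.17 FPKM in B1, B2 and B3 and 13.1, 40.6 and 18.3 FPKM in L1, L2 and L3, again without overlap. For PER2, the named form of 3876 bases stood at 0.288, 0.388 and 0.0964 FPKM in B1, B2 and B3 and at 1.48, 5.69 and 3.07 FPKM in L1, L2 and L3. The named form of 5903 bases was the larger of these 2 in B2 and B3, at 0.758 and 0.642 FPKM, and the smaller in the other 4 animals. Assembled transcripts gave 2.64, 2.84 and 2.65 FPKM of PER2 in the Luxi cattle and at most 0.441 FPKM in Shandong black cattle. When only named transcripts were used, PER2 had a log2 fold change of 1.45 and was no longer called by limma, with an adjusted p-value of 0.142, while PER1 was called at 0.0442.

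**Figure D2:**
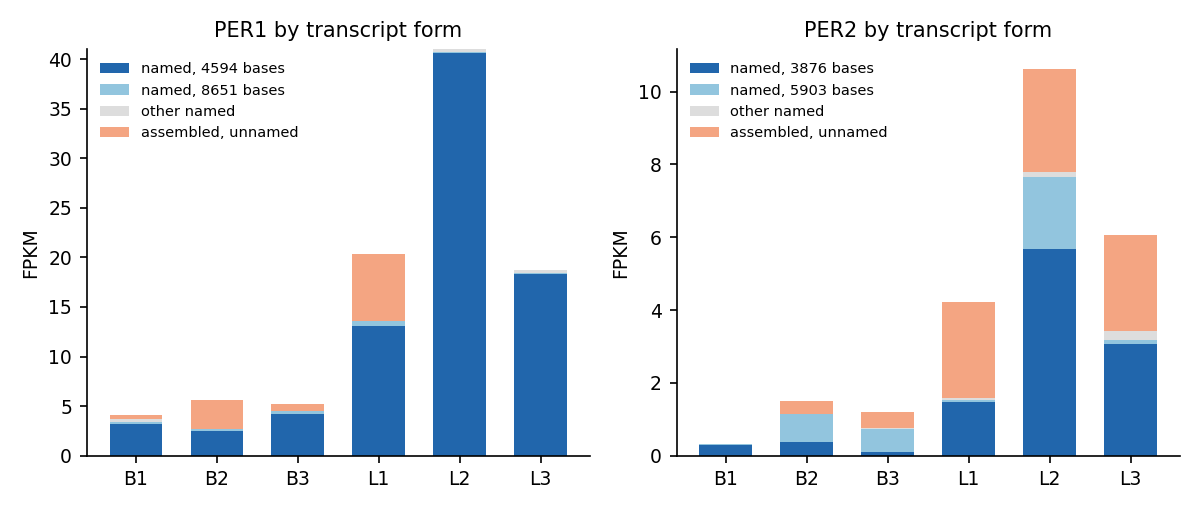
FPKM of PER1 (left) and PER2 (right) in each animal, stacked by the transcript form that carries it (2 named forms, other named forms, and unnamed assembled transcripts on the exons of the gene). The 4594-base form carries the PER1 difference, and unnamed transcripts add 2.64 to 2.84 FPKM to PER2 in each Luxi animal.

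Both calls were lost in some of the fits that left an animal out, and the count called over all genes moved widely in these fits as well. Over all genes it was 249 with every animal in. It was 15, 182 and 3 without B1, B2 or B3, and 596, 48 and 88 without L1, L2 or L3. PER1 kept its call without L1, L2 or L3, and missed it without B1 (limma adjusted p = 0.115), B2 (0.050, just above the threshold) or B3 (0.125). PER2 was called only when L1 was left out (0.0234), and was not called without L2 (0.0839), L3 (0.105), B1 (0.134), B2 (0.0601) or B3 (0.142). The log2 fold change stayed between 1.79 and 2.34 for PER1 and between 1.65 and 2.23 for PER2 in these fits.

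PER3, the third period gene, was not listed by name. In the gene order of the later assembly ARS-UCD2.0 its place is between UTS2 and VAMP3, and in the files that gap lies on chromosome 16 from 45530516 to 45607168. Unnamed transcripts of several exons were assembled there on the minus strand in all 6 animals, with up to 25 exons. They summed to 0.553, 1.61 and 0.466 FPKM in B1, B2 and B3 and to 2.29, 1.87 and 1.54 FPKM in L1, L2 and L3. B2 lay within the Luxi range, above L3, and the other 2 Shandong black cattle lay below it. These values were not tested and were not counted as PER3, since no name ties the transcripts to the gene.

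Among the cryptochromes, the partners of the period proteins in repression, CRY1 (chromosome 5, 70260216 to 70356120, minus strand) was at 1.93, 2.58 and 2.35 FPKM in B1, B2 and B3 and at 2.77, 4.08 and 3.24 FPKM in L1, L2 and L3. The breeds did not overlap, and the closest animals were B2 and L1. For CRY1 the log2 fold change was 0.40, with a 95% interval of -0.02 to 0.82 and a limma adjusted p-value of 0.243. A single named form of 3324 bases in 13 exons led in every animal.

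CRY2 (chromosome 15, 75880414 to 75915194, plus strand) could not be read from its summed FPKM. That sum was 0, 1.87 and 2.75 FPKM in B1, B2 and B3 and 0, 10.7 and 0.0351 FPKM in L1, L2 and L3, with a log2 fold change of 0.06 and a limma adjusted p-value of 0.980. In every animal the strongest transcript over CRY2 was an unnamed one of 12 exons that ran on past the named 3′ end, and it entered the sum only where at least 50% of its bases lay on named exons. This share was 45.1, 52.0 and 50.2% in B1, B2 and B3 and 41.2, 54.5 and 45.1% in L1, L2 and L3. The animals with a low sum were therefore the ones in which the assembled 3′ end was longest.

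A second measure, chosen after these values were seen, was the mean coverage of the named exons by all transcripts of the same strand, per aligned gigabase. By this measure CRY2 was at 3.11, 3.04 and 3.55 in B1, B2 and B3 and at 5.52, 12.5 and 8.90 in L1, L2 and L3. The lowest Luxi animal was above the highest Shandong black animal, and the ratio of the means was 2.78. On this scale the log2 fold change was 1.18, with a standard error of 0.27, a 95% interval of 0.56 to 1.80 and a limma adjusted p-value of 0.0521 over 9200 genes, so CRY2 missed the threshold on this measure as well. PER1 and PER2 were called on it too, with log2 fold changes of 1.96 and 1.69 and limma adjusted p-values of 0.0174 and 0.0398, beside 1.88% of all genes called higher in Luxi cattle. The members without overlap on it were PER1, PER2, CRY1 and CRY2, each higher in Luxi cattle, beside 20.9% of all genes.

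**Figure D3:**
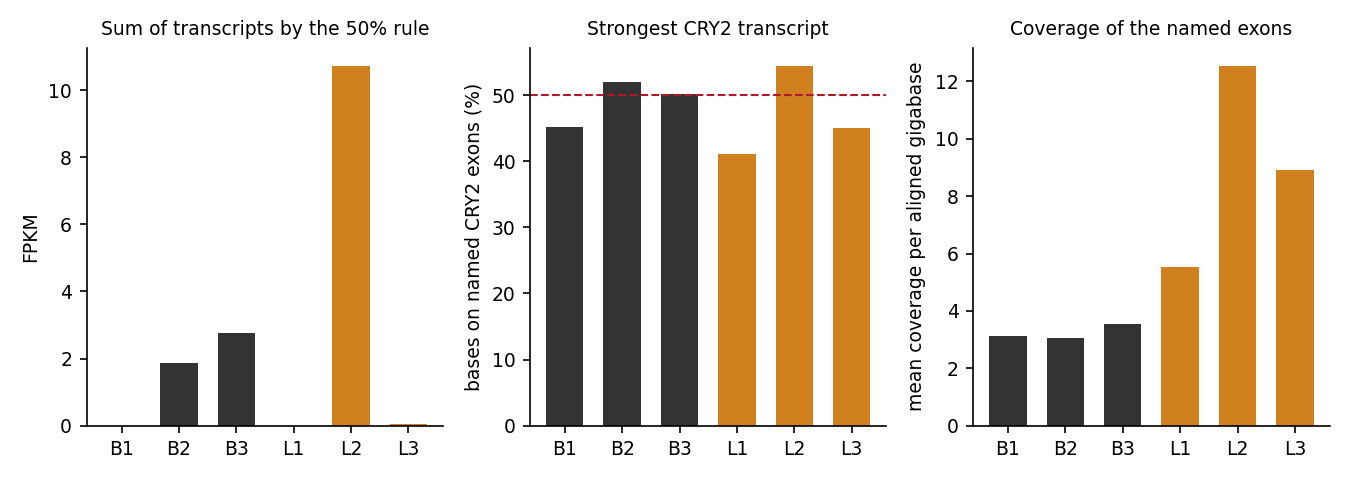
CRY2 in each animal by the summed FPKM (left), by the share of the strongest transcript's bases that lie on named exons (middle, with the 50% limit as a dashed line) and by the mean coverage of the named exons per aligned gigabase (right). Animals under the limit have a sum of at most 0.0351 FPKM, whereas their exon coverage is between 3.11 and 8.90.

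ARNTL, the activator whose loss stops the clock, lies on chromosome 15 from 39286453 to 39394465 on the minus strand. It was at 3.32, 1.89 and 2.72 FPKM in B1, B2 and B3 and at 1.45, 2.48 and 2.0 FPKM in L1, L2 and L3. The breeds overlapped, with a log2 fold change of -0.29, a 95% interval of -0.80 to 0.22 and a limma adjusted p-value of 0.465. CLOCK, its partner, lies on chromosome 6 from 70867167 to 70978587 on the minus strand and was at 2.26, 1.13 and 1.98 FPKM in B1, B2 and B3 and at 2.97, 2.55 and 2.13 FPKM in L1, L2 and L3. L3 lay below B1, and the log2 fold change was 0.37, with a 95% interval of -0.13 to 0.86 and a limma adjusted p-value of 0.349.

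NR1D1, the gene of REV-ERB alpha, lies on chromosome 19 from 40389831 to 40397513 on the minus strand. It was the most abundant member in Shandong black cattle, at 6.52, 18.6 and 11.2 FPKM in B1, B2 and B3, and was at 4.80, 13.0 and 9.21 FPKM in L1, L2 and L3. Within each breed the highest animal had more than 2 times the level of the lowest, 2.85 times among the Shandong black cattle and 2.70 times among the Luxi cattle. The log2 fold change was -0.37, with a 95% interval of -1.38 to 0.64 and a limma adjusted p-value of 0.646, so this spread leaves room for changes in either direction. The 3′ end of NR1D1 overlaps that of THRA, a thyroid hormone receptor gene on the opposite strand, which was at 7.92 to 8.79 FPKM in Shandong black cattle and 15.5 to 17.2 FPKM in Luxi cattle. The file headers give a strand setting for the assembly, and the part of reads from the opposite strand in the NR1D1 values was not tested.

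NR1D2, the gene of REV-ERB beta (chromosome 27, 41985182 to 42013765, minus strand), varied less than NR1D1 in summed FPKM. Its FPKM was 5.81, 6.54 and 6.94 in B1, B2 and B3 and 6.23, 9.77 and 8.60 in L1, L2 and L3. L1 lay inside the Shandong black range, and the log2 fold change was 0.29, with a 95% interval of -0.19 to 0.77 and a limma adjusted p-value of 0.433. In B1 and L1 the strongest NR1D2 transcript was an unnamed one of 2713 and 2703 bases, and elsewhere the named form of 4855 bases led. On exon coverage NR1D2 was at 3.61, 6.39 and 6.76 in B1, B2 and B3 and at 3.52, 9.49 and 8.36 in L1, L2 and L3. The spread within each breed was wider there, and L1 lay below every Shandong black animal. DBP (chromosome 18, 55272312 to 55278976, minus strand), a PAR bZIP factor and one of the most direct readouts of E-box activity, was low, at 0.704, 1.38 and 1.4 FPKM in B1, B2 and B3 and at 1.11, 2.1 and 1.58 FPKM in L1, L2 and L3. DBP had a log2 fold change of 0.26, with a 95% interval of -0.26 to 0.79 and a limma adjusted p-value of 0.517. In L3 DBP had no named transcript, and the strongest was an unnamed one of 935 bases in 1 exon. On exon coverage the log2 fold change of DBP was 0.11.

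The order of the members by mean FPKM differed at its top between the breeds. In Shandong black cattle it ran from NR1D1 (12.1) over NR1D2 (6.43), PER1 (4.96), ARNTL (2.65), CRY1 (2.29), CLOCK (1.79), CRY2 (1.54) and DBP (1.16) to PER2 (1.00). NR1D2 and PER1, and PER1 and ARNTL, did not overlap there, whereas every other pair of neighbours did. In Luxi cattle PER1 came first (26.7) and did not overlap NR1D1 (9.0), and all later neighbours overlapped, namely NR1D2 (8.20), PER2 (6.98), CRY2 (3.59), CRY1 (3.36), CLOCK (2.55), ARNTL (1.98) and DBP (1.60). PER2 was thus last of 9 in Shandong black cattle and at place 4 in Luxi cattle. The place of CRY2 rests on the sums that its long 3′ end affects. On exon coverage PER1 (10.1 to 21.8) overlapped NR1D1 (4.81 to 13.0) in Luxi cattle, although PER1 still had the highest mean. In Luxi cattle the mean of CRY2 (8.99) was above that of PER2 there. In Shandong black cattle the lowest PER1 (2.36) lay under the highest ARNTL (2.48) on that measure. NR1D2 (lowest 3.61) stayed above PER1 (highest 2.92) there, and PER2 stayed last by its mean.

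**Figure D4:**
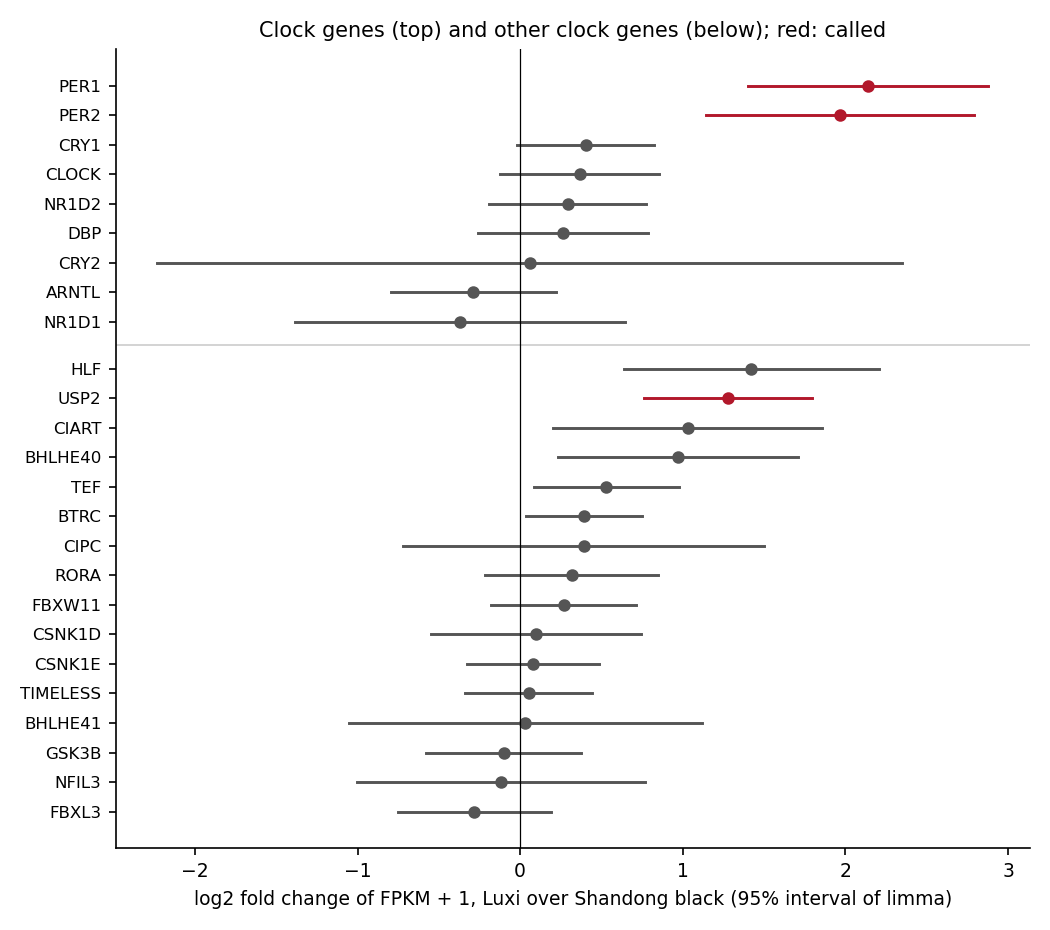
Log2 fold change of FPKM + 1, Luxi cattle over Shandong black cattle (horizontal axis), with the 95% interval of limma, for the 9 clock genes with a value (top) and the 16 other clock genes tested (below). Called genes are red: PER1 and PER2 above and USP2 below.

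To see whether the members shifted as 2 opposed sets, as samples taken at different hours could, the mean log2(FPKM + 1) of ARNTL and CLOCK was set against that of the 6 E-box genes PER1, PER2, CRY2, NR1D1, NR1D2 and DBP in each animal. The difference was 0.38, -1.03 and -0.52 in B1, B2 and B3 and -0.57, -1.74 and -0.91 in L1, L2 and L3. Its mean was -0.39 ± 0.71 for Shandong black and -1.08 ± 0.60 for Luxi cattle (SD, n = 3 each), so the means lay 0.69 apart, and the breeds overlapped, with B2 below L1 and L3. On exon coverage the means lay 0.79 apart, with SDs of 0.57 and 0.45. The breeds overlapped there too, with B2 (-1.09) below L1 (-0.89). Without CRY2 the means lay 0.82 apart on the FPKM scale. The mean of ARNTL and CLOCK was 1.65 ± 0.31 and 1.69 ± 0.11 in the breeds, and that of the E-box genes 2.04 ± 0.44 and 2.77 ± 0.71. ARNTL and CLOCK had opposite signs, with log2 fold changes of -0.29 and 0.37. Among the E-box genes PER1 and PER2 stood at 2.14 and 1.97, and CRY2, NR1D1, NR1D2 and DBP at 0.06, -0.37, 0.29 and 0.26. The score on FPKM thus rested mostly on PER1 and PER2, the genes already called. No test was made of this difference.

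Single pairs of members gave different pictures. NR1D1 over ARNTL was 1.96, 9.82 and 4.10 in B1, B2 and B3 and 3.32, 5.23 and 4.60 in L1, L2 and L3, so all Luxi cattle lay within the Shandong black range. In Shandong black cattle ARNTL was highest where NR1D1 was lowest (B1) and lowest where NR1D1 was highest (B2). In Luxi cattle L2 was highest and L1 lowest for both genes. PER1 over NR1D1, by contrast, was 0.621, 0.302 and 0.467 in B1, B2 and B3 and 4.23, 3.16 and 2.03 in L1, L2 and L3, without overlap. PER2 over ARNTL did not overlap either, at 0.0954 to 0.792 among the Shandong black and 2.92 to 4.28 among the Luxi cattle. DBP over ARNTL stood narrowly apart in FPKM, at 0.212 to 0.730 and 0.766 to 0.847. On exon coverage L3 had less DBP than B2 (0.883 and 1.32) and more ARNTL (1.56 and 1.49), so that ratio overlapped there. The period genes therefore differed between the breeds without a difference past the test in NR1D1, NR1D2 or DBP, which the same E-box activators drive. CRY2, a further E-box gene, did not pass the test on either measure. On exon coverage, however, every Luxi animal was above every Shandong black animal in CRY2 (log2 fold change 1.18, limma adjusted p = 0.0521). The same held on FPKM for HLF, TEF, CIART and BHLHE40, described below, none of which passed the test. The difference between these changes was not tested.

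**Figure D5:**
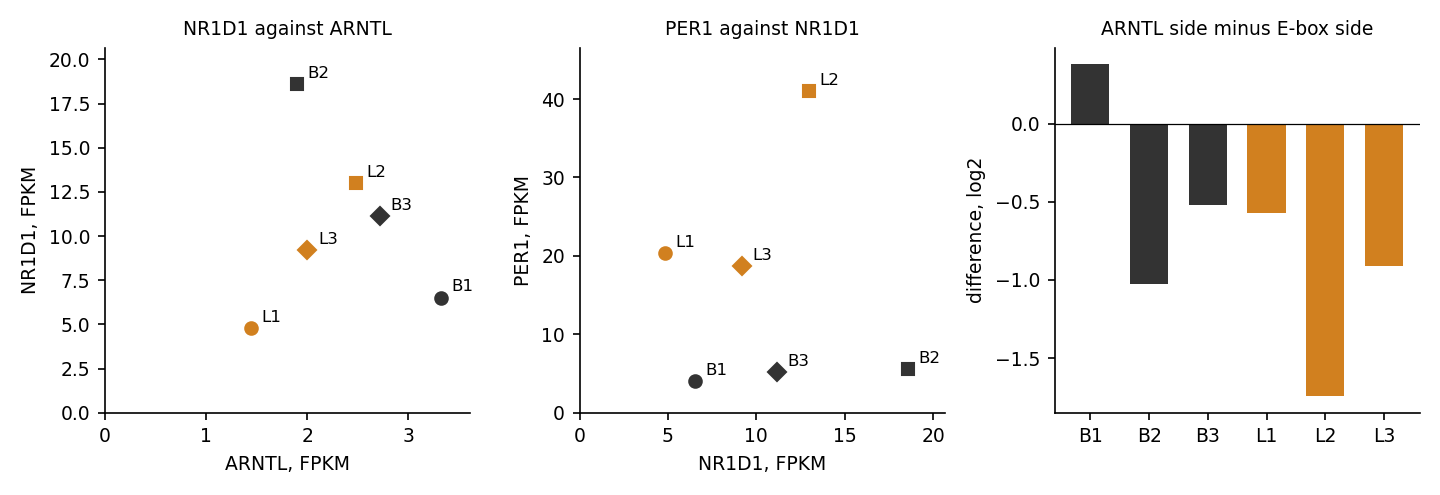
FPKM of NR1D1 against ARNTL (left) and of PER1 against NR1D1 (middle) in the 6 animals, and the mean log2(FPKM + 1) of ARNTL and CLOCK minus that of the 6 E-box genes in each animal (right). Luxi cattle lie among the Shandong black cattle in NR1D1 over ARNTL, and above all of them in PER1 at similar NR1D1.

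Further clock genes were taken from a list of 21, of which 17 were named in the files and 16 were tested. Only USP2, a deubiquitinase that stabilises clock proteins, was called, and it was higher in Luxi cattle, beside 1.56% of all genes called higher. USP2 was at 22.1, 21.6 and 17.0 FPKM in B1, B2 and B3 and at 47.1, 47.0 and 56.6 FPKM in L1, L2 and L3, with a log2 fold change of 1.28 and a limma adjusted p-value of 0.0344. On named transcripts alone the log2 fold change of USP2 was 0.30 and on exon coverage 1.02, with limma adjusted p-values of 0.667 and 0.0580, and with the replicate block it was 0.0763. When single animals were left out, USP2 kept its call in 1 of 6 fits, the one without L1 (limma adjusted p = 0.0222; 0.0711 to 0.192 in the other 5). Of the 16 tested, 6 had no overlap with Luxi cattle higher, beside the 20.0% of all genes. The same count, 6, had an unadjusted limma p-value under 0.05, beside 2135 of all 9765. By limma voom 0 of the 16 were called, and the median log2 fold change was 0.29.

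The PAR bZIP relatives of DBP belonged to those 6 genes. HLF was at 1.59, 2.50 and 2.30 FPKM in B1, B2 and B3 and at 3.85, 9.77 and 10.01 FPKM in L1, L2 and L3, for a log2 difference of 1.42 (limma adjusted p = 0.0727). TEF was at 2.38, 2.24 and 2.47 FPKM in B1, B2 and B3 and at 2.84, 4.34 and 4.61 FPKM in L1, L2 and L3, for a log2 difference of 0.53 (limma adjusted p = 0.164). Neither passed the test, although in both the Luxi cattle lay above all Shandong black cattle, as they did not in DBP.

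Among the repressors and E-box competitors, 6 of 6 genes were tested and 0 were called by limma or by limma voom. An unadjusted limma p-value under 0.05 was found for 2 of them, beside 2135 of all 9765 genes. CIART, a repressor of the CLOCK and ARNTL pair, was at 1.16, 3.52 and 2.20 FPKM in B1, B2 and B3 and at 4.10, 8.93 and 4.25 FPKM in L1, L2 and L3, and BHLHE40, which competes for E-boxes, was at 8.01 to 9.75 and 10.6 to 24.4 FPKM. Their log2 fold changes were 1.03 and 0.97, with limma adjusted p-values of 0.15 and 0.136. The value of CIART fell to 0.45 on named transcripts alone and to 0.67 when unnamed transcripts needed 80% of their bases on exons. RORA, an activator of ARNTL that acts on the same element as the REV-ERB receptors, was at 3.49 to 4.77 FPKM in Shandong black cattle and 3.98 to 6.81 FPKM in Luxi cattle, with a log2 fold change of 0.32 and a limma adjusted p-value of 0.442. NPAS2, which can stand in for CLOCK, had no named transcript, and unnamed transcripts in its place between PDCL3 and RPL31 summed to 0 to 0.410 FPKM in Shandong black cattle and 0.316 to 0.911 FPKM in Luxi cattle. ARNTL2, RORB and FBXL21 were not named in the files either.

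Of 8 genes known as clock outputs in muscle, all were tested and 0 were called by limma or by limma voom, while 4 had no overlap with Luxi cattle higher, beside 20.0% of all genes, and 4 had an unadjusted limma p-value under 0.05, beside 2135 of all 9765. The largest differences in log2(FPKM + 1) were those of TCAP, a titin cap protein, and PDK4, the kinase that holds back pyruvate oxidation. PDK4 was at 139, 419 and 217 FPKM in B1, B2 and B3 and at 539, 752 and 738 FPKM in L1, L2 and L3, for a log2 difference of 1.52 (limma adjusted p = 0.121) that was -1.33 on named transcripts alone. TCAP ran from 0.0993 to 361 FPKM in Shandong black cattle and from 106 to 355 FPKM in Luxi cattle, so its log2 fold change of 2.98 rested on single animals (limma adjusted p = 0.382) and was -0.64 on exon coverage.

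PER1 is also transcribed in response to glucocorticoids, so 10 genes known for that response were read beside it. FOXO1 and ZBTB16 were called higher in Luxi cattle, beside 1.56% of all genes, and the other 8 did not pass. By limma voom 1 of the 10 was called. In 5 of the 10 all Luxi cattle lay above all Shandong black cattle, beside 20.0% of all genes. FOXO1, a fasting-responsive transcription factor, was at 8.24, 4.73 and 5.53 FPKM in B1, B2 and B3 and at 38.2, 36.0 and 30.5 FPKM in L1, L2 and L3 (log2 fold change 2.35, limma adjusted p = 0.00945). ZBTB16, a zinc finger factor, was at 7.90 to 13.6 and 31.0 to 43.5 FPKM (log2 fold change 1.61, limma adjusted p = 0.0324), and on exon coverage it was at 1.19 (0.105). With the replicate block ZBTB16 had a limma adjusted p-value of 0.0552, and with single animals left out it kept its call in 1 of 6 fits, the one without L1 (0.0305; 0.0528 to 0.136 in the other 5). FOXO1 missed the threshold without B3 (0.0847). FKBP5 and TSC22D3, much used markers of the response, and the metallothionein gene MT2A were among the 5 without overlap, but did not pass the test. Their log2 fold changes were 0.81, 0.42 and 2.1, with limma adjusted p-values of 0.145, 0.290 and 0.0766. The rest of the list overlapped between the breeds. SGK1 had a log2 fold change of -0.63, DUSP1 of 0.09, CDKN1A of 0.21 and KLF15 of 0.27. KLF9 was at 1.61 and rested on L1, at 53.7 FPKM beside 3.51 in L2 and 0.694 in L3. The part of this response in the PER1 difference was not tested.

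Marker genes of several cell types differed between the breeds, and fewer cells of a type cannot be told apart from less RNA per cell in these samples. ACTA1 and CKM, which define muscle fibres, were at 32188 to 54910 and 2232 to 6718 FPKM in 5 animals, and at 12237 and 1832 FPKM in L1. L1 was far below the others in DES, an intermediate filament gene of muscle, at 174 FPKM beside 1249 or more, and it had the most transcripts of any library (175373, beside 121048 to 161263). Of the other general fibre markers only MYH7 was lowest in L1, at 120 FPKM. TTN (625 FPKM) and MYLPF (2065 FPKM) lay in L1 within the Shandong black range, and TNNT3 (585 FPKM) lay above it. PER1 and PER2 were both called without L1. Of the general fibre markers 0 of 9 were called, with the largest differences in the fast fibre genes MYH2 and TNNT3 (log2 fold changes 3.57 and 2.95, limma adjusted p = 0.136 and 0.101).

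Of 6 fat cell markers 4 were called lower in Luxi cattle, beside 0.993% of all genes. The 4 were ADIPOQ, PLIN1, FABP4 and CIDEC, with log2 fold changes of -3.50, -3.06, -3.90 and -2.78 and limma adjusted p-values of 0.0364, 0.0068, 0.0191 and 0.0211. ADIPOQ missed the threshold with the replicate block (0.0591) and voom (0.0595), and voom called 2 of the 6. The sum of the 6 was 126 to 191 FPKM in the first breed and 35.4 to 53.5 FPKM in Luxi cattle. LPL, a lipase that muscle fibres also make, went the other way and was higher in every Luxi animal (log2 fold change 0.85, limma adjusted p = 0.106).

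Slow fibre markers summed to 25446 to 31637 and 3165 to 13062 FPKM, with MYL2 alone at 16912 to 24909 and 1513 to 7936 FPKM. Of these markers 1 of 6 was called lower, TNNI1 (log2 fold change -2.32, limma adjusted p = 0.0467), beside 0.993% of all genes. TNNI1 missed the threshold with the replicate block (0.0679), voom (0.0582) and named transcripts alone (0.191). MYL3 went the other way without overlap, at 13.1 to 46.4 and 63.5 to 1180 FPKM (log2 fold change 3.33, limma adjusted p = 0.118). The fibroblast markers summed to 106 to 157 and 353 to 467 FPKM. Among them 1 of 5 was called higher, COL3A1 (log2 fold change 2.94, limma adjusted p = 0.00717), beside 1.56% of all genes.

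Of the endothelial, leukocyte and nerve markers 0 were called by limma or limma voom. An unadjusted limma p-value under 0.05 was found for 2 of 4, 1 of 4 and 2 of 2 tested. Of the general fibre markers 3 of 9 were so too, beside 2135 of all 9765 genes. The largest differences were in CDH5 and PECAM1 of endothelium (log2 fold changes 1.52 and 0.87), CSF1R and AIF1 of macrophages (-0.66 and -0.45) and S100B and MBP of nerve (-2.33 and 0.86), with limma adjusted p-values of 0.0766, 0.178, 0.145, 0.431, 0.0826 and 0.0898. The blood genes HBB and HBA stayed under 1 FPKM in every animal. The part of cell composition and sex in the clock gene values was not tested.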

How the data were processed

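RNA-Seq libraries of longissimus dorsi muscle from 3 Shandong black and 3 Luxi cattle were analysed from one transcript file per animal. The authors trimmed reads with Fastp, aligned them to ARS-UCD1.2 with HISAT and assembled each library with StringTie (1.3.3b per the file headers, with the annotation as guide and the strand of the reads in use). In the deposited files each transcript carries its coverage (mean reads per base, not normalized), FPKM and TPM, and a transcript not found has no line. The replicate samples are different animals, and the aligned sequence of a library was 14.1 to 14.6 gigabases for Shandong black and 17.5 to 18.0 gigabases for Luxi cattle. Read counts were not used, so no counting error is given.

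Gene FPKM was summed over named transcripts and over those unnamed ones that had 50% or more of their bases on the exons of the gene, same strand. What this rule left out held 21.6 to 29.8% of a library's FPKM. Genes with a mean of at least 1 FPKM in a breed were tested with limma 3.58.1 in R 4.3.3 (lmFit, eBayes with trend) on log2(FPKM + 1) without scaling between animals, with Benjamini-Hochberg adjustment. An exact two-sided permutation test of 3 against 3 animals cannot go below 0.1 and was not used. The script was tested on simulated data. No set or list was tested.

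All members are given with their values. From each other list the called genes or, with none, the 2 with the largest difference are named, and NPAS2, TEF and CIART in any case. FKBP5, TSC22D3, MT2A, SGK1, DUSP1, CDKN1A, KLF15, KLF9, LPL, MYL2, MYL3, ACTA1, CKM, DES, MYH7, TTN, MYLPF and THRA were named after their values were seen. The members and lists were chosen with earlier results of these data known. Gene order of ARS-UCD2.0 was used for PER3 and NPAS2 only. Alternatives were a pseudocount of 0.1, no filter, a mean of at least 5 FPKM, TPM, size factors, quantile normalization, no trend, voom on estimated read numbers, the replicate number as a block, named transcripts only, 80% of bases on exons, no fold-change threshold, each animal left out, and exon coverage (added later).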

Additional observations from a re-analysis of the deposited data

How the results depend on the processing

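PER1 and PER2 were higher in Luxi cattle in every alternative run. PER1 was called in 12 of 13 fits on all animals, all but that without a filter on FPKM (limma adjusted p = 0.0675), and PER2 in 8 of 12, not with a pseudocount of 0.1 (0.0514), without a filter (0.10), with voom (0.0745) or on named transcripts alone (0.142); PER2 did not enter the fit with a mean of at least 5 FPKM. The count of members called was 2, and it was 1 with voom, with a mean of at least 5 FPKM, with a pseudocount of 0.1 and on named transcripts alone, 0 without a filter, and 0 to 2 when an animal was left out. Scaling by size factors moved the median log2 fold change over the table from 0.13 to 0.02 and left PER1 at 1.99 and PER2 at 1.85, both called; 61.0% of called genes were higher in Luxi cattle without scaling, 44.1% with size factors, 43.3% with quantile normalization, and 42.3 to 78.5% when an animal was left out. Over all genes 249 were called (2135 at an unadjusted limma p-value under 0.05), with 92 by voom, 139 with a mean of at least 5 FPKM, 65 without a filter, 162 on named transcripts alone, and 3 (without B3) to 596 (without L1) when an animal was left out. With the replicate number as a block 134 genes were called, and PER1 and PER2 stayed called at limma adjusted p-values of 0.0376 and 0.0313. Over all genes tested, deviations of same-numbered animals correlated at 0.0816 to 0.0905, under the 0.1 set for pairing, although each animal correlated best with its own number, so the numbers were not taken as pairs. NR1D1 and PER2 both ran from animal 1 over 3 to 2 in each breed. With the block their standard errors fell from 0.43 to 0.20 and from 0.35 to 0.19, and that of ARNTL rose from 0.22 to 0.25. NR1D1 was not called with the block (limma adjusted p = 0.322).

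The log2 fold change of CRY2 changed sign with a pseudocount of 0.1 (-0.65), with TPM (-0.28), with size factors (-0.011), with quantile normalization (-0.049) and with voom (-1.35), and without B1 (-0.51) or L2 (-1.12), with a range of -1.12 to 0.66 when an animal was left out. PDK4 was at -1.33 on named transcripts alone and TCAP at -0.64 on exon coverage. The causes of these were not tested. The difference between the ARNTL side and the E-box genes stayed negative, from -1.0 to -0.30 when an animal was left out. Adding NPAS2 to the ARNTL side could not be run, since it has no named transcript. Depth differs by breed, and the number of animals limits every comparison.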

Other observations

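Unnamed transcripts of several exons were also assembled on the strand opposite to some clock genes. Opposite PER1 they were found in L1 and L2, at 0.689 and 0.302 FPKM, and in none of the other 4 animals. Opposite PER2 they were found in B3, L1 and L2, at 0.273, 0.328 and 0.419 FPKM. They were not tested.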
